A study of Homo sapiens with 54 samples.

Results

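The cholesterol genes examined here were 28 named symbols of the expression table, taken by name and not by their values, out of 60642 symbols in all. They were 18 enzymes of cholesterol synthesis and 10 genes that control the pathway or move and store its product. All 28 passed the filter on low values (8 or more tumours with 1 TPM), and so were among the 17593 genes tested. TPM is the share of the transcripts in a library that a gene takes, corrected for transcript length and scaled to 1000000.

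Cells build cholesterol from acetyl-CoA. ACAT2, HMGCS1, MVK, PMVK, MVD, IDI1 and FDPS, the 7 enzymes of the mevalonate segment considered here, lead to farnesyl diphosphate, and 11 enzymes from FDFT1 to DHCR7 turn that into squalene, lanosterol and finally sterols. The pathway is run by SREBP transcription factors, made from SREBF1 and SREBF2. SCAP escorts SREBPs out of the endoplasmic reticulum when sterols are low, and INSIG1 and INSIG2 hold SCAP back when sterols are high. INSIG1 and STARD4, a cytosolic sterol carrier, are themselves known SREBP targets. ABCA1 and ABCG1 export cholesterol and are known targets of the sterol sensor LXR, NPC1 releases cholesterol from lysosomes, and SOAT1 esterifies it for storage. In prostate cancer cells androgens are known to raise lipid synthesis through SREBPs.

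RNA-seq was done on 54 xenografts of LNCaP (clone FGC), a line of human prostate cancer cells that respond to androgen, so that all tumours shared 1 genetic source. They grew under the skin of male NOD-SCID mice, which lack an adaptive immune system and were 5 to 6 weeks old on arrival, with 1 tumour for each mouse. Mice had surgery at a tumour volume of about 200 mm3. PRE-CX tumours (n = 9) came from intact mice after mock surgery and were taken at 1000 mm3. All other mice were castrated. POST-CX tumours (n = 8) were taken 1 week later, at the lowest serum prostate-specific antigen (PSA), and CRPC tumours (n = 10) when PSA had returned or the tumour had reached 1000 mm3. Enzalutamide, an antiandrogen drug, was given by gavage to castrated mice at 10 mg/kg on 5 days a week from the time PSA began to rise. ENZS tumours (n = 12) were taken at the next PSA nadir on the drug. ENZR tumours (n = 15) were taken on the drug when PSA had returned or the tumour had reached 1000 mm3. Castration is thus shared by POST-CX, CRPC, ENZS and ENZR tumours. The labels gave no batch.

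The 250 bases upstream of the annotated start of SREBF2, INSIG1, STARD4 and EBP, and of INSIG2 to set beside INSIG1, are printed below, since the SREBP factors act at such promoters. They are RefSeq sequences of build GRCh38.p14, 5′ to 3′ on the strand of the gene. Capitals mark TCACNCCAC (a form of the sterol regulatory element), CCAAT (the box bound by NF-Y, a known partner of SREBPs) and CACGTG (an E-box), each searched on both strands, where N is any base and no capital stretches overlap. The SREBF2 window is chr22:41832855-41833104 on the plus strand, that of INSIG1 chr7:155297628-155297877 (plus), that of STARD4 chr5:111512536-111512785 (minus), that of EBP chrX:48521558-48521807 (plus) and that of INSIG2 chr2:118088221-118088470 (plus).
SREBF2: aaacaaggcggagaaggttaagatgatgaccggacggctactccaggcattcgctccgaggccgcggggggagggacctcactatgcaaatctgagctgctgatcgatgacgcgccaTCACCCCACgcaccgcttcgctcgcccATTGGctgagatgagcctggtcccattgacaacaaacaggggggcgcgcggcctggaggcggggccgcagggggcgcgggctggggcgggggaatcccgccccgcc
INSIG1: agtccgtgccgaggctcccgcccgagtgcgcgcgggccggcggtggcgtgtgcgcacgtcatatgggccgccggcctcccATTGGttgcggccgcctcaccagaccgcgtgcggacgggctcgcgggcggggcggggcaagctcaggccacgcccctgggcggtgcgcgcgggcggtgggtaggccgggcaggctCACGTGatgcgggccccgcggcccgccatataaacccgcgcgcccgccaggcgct
STARD4: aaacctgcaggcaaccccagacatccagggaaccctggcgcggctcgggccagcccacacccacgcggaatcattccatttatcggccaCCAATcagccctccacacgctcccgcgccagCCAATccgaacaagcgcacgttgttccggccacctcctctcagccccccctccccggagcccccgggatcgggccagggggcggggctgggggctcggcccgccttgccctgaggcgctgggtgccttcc
EBP: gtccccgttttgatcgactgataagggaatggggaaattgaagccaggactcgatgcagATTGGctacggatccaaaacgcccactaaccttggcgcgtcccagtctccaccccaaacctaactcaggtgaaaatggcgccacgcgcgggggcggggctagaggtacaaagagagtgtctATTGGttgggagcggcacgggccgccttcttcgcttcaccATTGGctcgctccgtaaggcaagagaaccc
INSIG2: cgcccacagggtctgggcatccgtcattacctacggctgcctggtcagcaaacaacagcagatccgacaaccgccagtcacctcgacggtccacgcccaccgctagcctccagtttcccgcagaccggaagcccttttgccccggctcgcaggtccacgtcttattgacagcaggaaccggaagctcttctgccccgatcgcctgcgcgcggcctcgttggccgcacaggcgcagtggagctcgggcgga

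The SREBF2 window held TCACCCCAC from base -133 to base -125 and a CCAAT box, read on the other strand as ATTGG, from base -106 to base -102, counted back from the start. INSIG1 held ATTGG and CACGTG, STARD4 and EBP held more than 1 CCAAT box each, and these letters were absent from the INSIG2 window. Promoter windows were matched for 24 members, with 30 windows in all. ACAT2, FDFT1, SQLE and ABCG1 were unmatched. CCAAT was in 63.3% of the 30 member windows, in 32.0% of 35116 windows of all genes and in 33.2% of 15857 windows of tested genes. By gene it was in 13 of 15 synthesis enzymes and in 4 of 9 other members, and no share by gene was taken over all genes. TCACNCCAC was in the SREBF2 window alone among the 30, against 0.883% of all windows. CACGTG was in 5 of the 30 windows, or 16.7%, which belonged to 4 genes. It was in 6.34% of all windows and in 8.21% of windows of tested genes. A match is a description of letters and not a bound site.

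The tumours differed in the share of their transcripts that was human. Summed over the human symbols, the deposited TPM of a tumour came to 12.1% to 97.5% of 1000000, with a median of 89.9%, since mouse transcripts had been left out. Values were therefore rescaled to 1000000 for each tumour. ENZR 87 (12.1%), POST-CX 91 (27.9%), POST-CX 48 (59.7%) and ENZR 103 (66.7%) had the lowest human totals, and ENZR 87 was the lowest ENZR tumour in 13 of the 28 members. ENZR 75 stood apart in the other direction. It was the highest ENZR tumour in 11 members, among them EBP, INSIG1, IDI1 and FDFT1, and the lowest in ABCG1 and SOAT1. It also had the highest mean of the cell division genes (4.97 on the log2 scale, median 3.37 in ENZR) of the ENZR tumours. Its sum over human symbols of stroma, vessel, blood and fat markers (15.7 TPM) was the lowest of them. CRPC 47 was the lowest CRPC tumour in 16 members, and CRPC 43 the highest in 14. The luminal keratins KRT8 (221 to 704 TPM) and KRT18 (260.2 to 813 TPM), and KLK3, which encodes PSA, were present in every tumour. In bulk tumours fewer cells of a type and less RNA in each cell cannot be told apart.

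Human symbols of stroma and blood markers, cell division genes and androgen-induced genes differed in level between the groups. The summed level of 20 markers of stroma, vessels, blood and fat, as read on human symbols, was 11.0 to 23.9 TPM in PRE-CX, 15.9 to 44.6 in POST-CX, 18.7 to 106 in CRPC, 25.9 to 305 in ENZS and 15.7 to 100.1 in ENZR tumours. Of these markers 7 had a median of 0 over the tumours and 8 never reached 1 TPM, including the vessel genes PECAM1, CDH5 and KDR and the leukocyte gene PTPRC. Host cells are mouse cells and mouse transcripts had been left out, so the sum does not measure host tissue. It was 44.6 TPM in POST-CX 91, at a human total of 27.9%, and 305 TPM in ENZS 80, at 80.3%. All 6 cell division genes examined fell in both ENZS and ENZR compared with PRE-CX and none was called in POST-CX or CRPC (limma, 0 of 6 each, and 0 of 6 at an unadjusted p under 0.05). All 5 androgen-induced genes examined fell in POST-CX, ENZS and ENZR, and 2 of 5 in CRPC. The part of these differences in the values below was not tested.

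Castration and enzalutamide were first compared with the intact state, to see whether sterol genes differed after androgen withdrawal. PRE-CX tumours were taken at 1000 mm3, POST-CX tumours 1 week after castration and ENZS tumours at a PSA nadir. Tumour size and time since surgery were thus not matched. Their part cannot be told apart from that of androgen withdrawal. Calls were made in a limma fit over all genes, where the adjusted p was under 0.05. Differences are of mean log2(rescaled TPM + 1), given with their standard error (SE) or 95% interval. In POST-CX 4 members rose and 8 fell, where 20.6% of all genes tested rose and 5.62% fell. In CRPC 1 rose and 3 fell, against 14.2% and 5.87% of all genes. In ENZS 10 rose and 7 fell, against 47.5% and 13.6%, and in ENZR 7 rose and 7 fell, against 44.6% and 13.8%. On rescaled TPM falls among the members were thus more frequent than over all genes in the 4 comparisons, and rises were less frequent. In CRPC the falls were only 3 members. ACAT2 was among them, and its CRPC call was lost in 10 of the 54 fits that each left out 1 tumour. These comparisons share the PRE-CX tumours and are not independent of each other.

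Scaling moved these splits. All-gene medians lay above 0, at 0.16, 0.08, 0.29 and 0.25 (log2) in POST-CX, CRPC, ENZS and ENZR. With each tumour centred on its median gene, the members split into 4 higher and 15 lower in POST-CX (all genes 10.2% and 14.4%), 1 and 6 in CRPC (11.6% and 11%), 4 and 15 in ENZS (26.6% and 28.3%) and 4 and 12 in ENZR (24.2% and 27.7%). With TPM as deposited the splits were 1 and 4 in POST-CX (1.66% and 2.67%), 1 and 1 in CRPC (5.55% and 1.87%), 3 and 4 in ENZS (30.3% and 8.18%) and 2 and 7 in ENZR (17.6% and 11.5%). Over the 18 enzymes the median difference was -0.24 in POST-CX, 0.02 in CRPC, -0.08 in ENZS and 0.03 in ENZR, and after centring it was -0.43, -0.08, -0.37 and -0.23, so that its sign in CRPC and ENZR depended on the scaling. Called on all 3 scales were FDFT1, EBP, INSIG1, STARD4 and ABCG1 in POST-CX, STARD4 and ABCG1 in CRPC, ACAT2, FDPS, EBP, SC5D, STARD4, ABCA1 and ABCG1 in ENZS, and ACAT2, FDPS, FDFT1, EBP, INSIG1, SREBF2, STARD4, ABCA1 and ABCG1 in ENZR. A call named below that is not in this list was lost in that group on at least 1 of the other scales. Centring also added lower calls, in HMGCS1, MVK, LSS, NSDHL, SC5D, DHCR7 and NPC1 in POST-CX, in FDPS, FDFT1 and SCAP in CRPC, in HMGCS1, MVK, MVD, IDI1, LSS, NSDHL, DHCR7 and SCAP in ENZS, and in MVK, IDI1, NSDHL, DHCR7 and SCAP in ENZR. With array weights CRPC had 6 members higher and 6 lower than PRE-CX, against 24.9% and 10.3% of all genes.

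**Figure D1:**
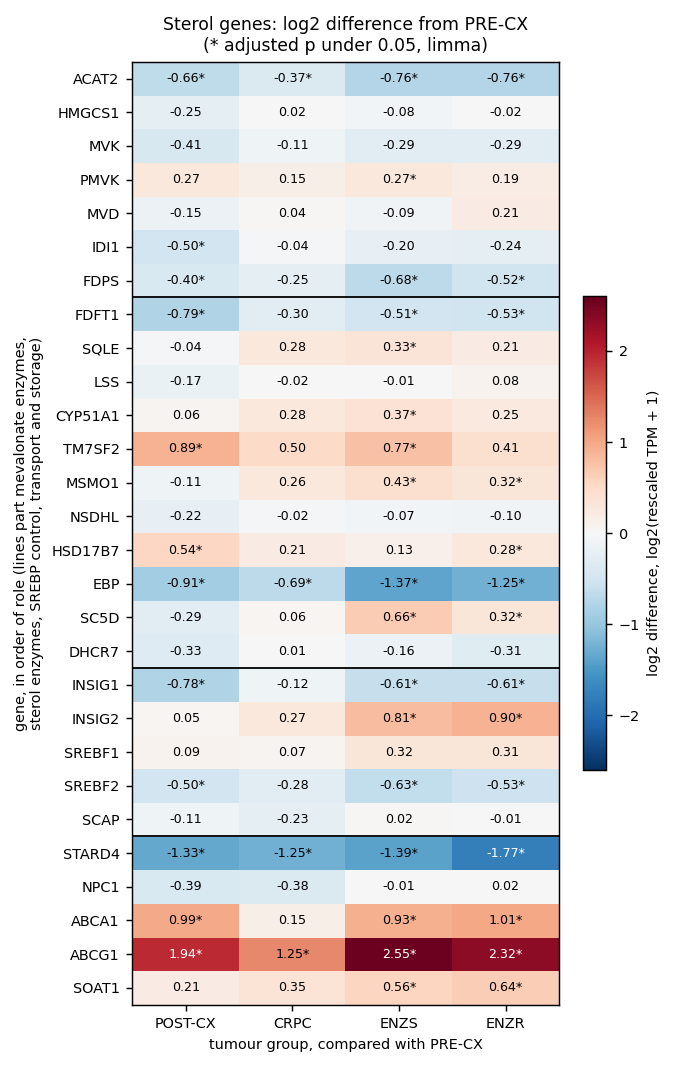
Differences of the 28 sterol genes (rows) from PRE-CX in the 4 other groups (columns), as log2 differences of rescaled TPM + 1 from limma, with a star where the adjusted p was under 0.05. EBP and STARD4 were called lower and ABCG1 higher in all 4 columns, SC5D and INSIG2 were called in the ENZS and ENZR columns, and PMVK in ENZS turned from 0.27 to -0.02 when tumours were centred on their median gene.

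On rescaled TPM the calls in the mevalonate segment fell on its first and last enzymes more than on those between. Centring added lower calls in HMGCS1, MVK, MVD and IDI1, which lie between them. ACAT2, the cytosolic thiolase that makes acetoacetyl-CoA, fell in all 4 groups, by log2 differences of -0.66 in POST-CX, -0.37 in CRPC, -0.76 in ENZS and -0.76 in ENZR (adjusted p = 0.000608, 0.0421, 1.89e-06 and 1.3e-06). HMGCS1, which makes HMG-CoA, was called in none on rescaled TPM, with differences of -0.25, 0.02, -0.08 and -0.02. MVK, mevalonate kinase, had differences of -0.41 to -0.11 with adjusted p between 0.0509 and 0.658. MVD, the decarboxylase, had -0.15 to 0.21 and was also called in none on rescaled TPM. After centring HMGCS1 was called lower in POST-CX and ENZS (-0.45 and -0.38), MVK in POST-CX, ENZS and ENZR (-0.60, -0.59 and -0.55) and MVD in ENZS (-0.38).

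FDPS makes farnesyl diphosphate, the branch point to sterols, dolichol and prenyl groups. Its lowest, median and highest levels were 123, 151 and 190.1 TPM in PRE-CX, 92.6, 121 and 141 in POST-CX, 97.4, 124 and 205 in CRPC, 83.4, 94.1 and 107 in ENZS and 75.8, 109 and 159 in ENZR. All 12 ENZS tumours lay below all 9 PRE-CX tumours, as did 12 of 15 ENZR, 4 of 8 POST-CX and 5 of 10 CRPC tumours. FDPS fell in POST-CX, at -0.40 ± 0.11 (SE, adjusted p = 0.00739), in ENZS at -0.68 ± 0.10 (SE, adjusted p = 1.81e-07) and in ENZR at -0.52 ± 0.10 (SE, adjusted p = 1.76e-05), and was not called in CRPC at -0.25 ± 0.11 (SE, adjusted p = 0.0936). IDI1, the isomerase before it, measured 60.7, 91.6 and 106 TPM in PRE-CX, 49.5, 60.2 and 70.4 in POST-CX, 67.6, 81.7 and 117 in CRPC, 63.4, 75.0 and 86.2 in ENZS and 40.0, 72.2 and 146 in ENZR. Of the POST-CX tumours 5 of 8 were under the lowest PRE-CX tumour. IDI1 fell in POST-CX, at -0.50 ± 0.14 (SE, adjusted p = 0.00537). On rescaled TPM it was not called in CRPC, ENZS or ENZR, whose ranges overlapped with PRE-CX. After centring it was called lower in ENZS and ENZR. PMVK, phosphomevalonate kinase, measured 52.1, 60.5 and 73.4 TPM in PRE-CX, 68.4, 74.0 and 80.6 in POST-CX, 52.3, 70.8 and 84.4 in CRPC, 58.3, 75.9 and 93.7 in ENZS and 46.8, 70.4 and 92.8 in ENZR. Here 8 of 12 ENZS and 5 of 8 POST-CX tumours were above the PRE-CX range. PMVK was higher in ENZS by 0.27 ± 0.10 (SE, adjusted p = 0.0117), a difference that was -0.02 after centring.

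In the sterol segment EBP was called in all 4 comparisons. EBP, the isomerase that shifts a ring double bond late in the pathway, measured 76.8, 94.9 and 129.7 TPM in PRE-CX, 38.0, 51.9 and 59.7 in POST-CX, 44.6, 55.6 and 101 in CRPC, 23.9, 37.4 and 54.2 in ENZS and 20.8, 37.8 and 106 in ENZR at the lowest, median and highest tumour. No POST-CX or ENZS tumour reached the lowest PRE-CX tumour, whereas 1 CRPC tumour (CRPC 81) and 1 ENZR tumour (ENZR 75) were within the PRE-CX range. EBP fell in every group, at -0.91 ± 0.18 (SE, adjusted p = 0.00022) in POST-CX, -0.69 ± 0.17 (SE, adjusted p = 0.0029) in CRPC, -1.37 ± 0.17 (SE, adjusted p = 1.21e-09) in ENZS and -1.25 ± 0.16 (SE, adjusted p = 5.65e-09) in ENZR.

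FDFT1, squalene synthase, commits farnesyl diphosphate to sterols and was among the most abundant members. It measured 173, 265 and 346 TPM in PRE-CX, 121, 155 and 171 in POST-CX, 160.2, 204 and 300.0 in CRPC, 153, 181 and 229 in ENZS and 138, 177 and 326 in ENZR. Every POST-CX tumour was below every PRE-CX tumour, and the CRPC, ENZS and ENZR ranges overlapped with PRE-CX. The differences were -0.79 ± 0.13 (SE, adjusted p = 1.56e-05) in POST-CX, -0.51 ± 0.12 (SE, adjusted p = 0.000269) in ENZS and -0.53 ± 0.11 (SE, adjusted p = 0.000105) in ENZR, and -0.30 ± 0.12 (SE, adjusted p = 0.0769) in CRPC, which was not called.

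TM7SF2, a sterol reductase acting after CYP51A1, and HSD17B7, a keto-sterol reductase, were called higher in POST-CX and each in 1 further group. TM7SF2 measured 59.4, 88.4 and 141 TPM in PRE-CX, 125, 165 and 194 in POST-CX, 73.5, 119 and 182 in CRPC, 99.3, 133 and 331 in ENZS and 39.4, 123 and 193 in ENZR. Of the POST-CX tumours 7 of 8 were above the PRE-CX range, and ENZS 49 was far above the other ENZS tumours. It was higher by 0.89 ± 0.22 (SE, adjusted p = 0.00195) in POST-CX and 0.77 ± 0.20 (SE, adjusted p = 0.000763) in ENZS. TM7SF2 was not called in CRPC at 0.50 ± 0.21 (SE, adjusted p = 0.0765) or in ENZR at 0.41 ± 0.19 (SE, adjusted p = 0.0579). HSD17B7 measured 21.3, 23.2 and 24.9 TPM in PRE-CX, 27.1, 35.6 and 42.0 in POST-CX, 22.5, 25.9 and 34.4 in CRPC, 19.3, 26.0 and 31.4 in ENZS and 21.2, 26.7 and 39.1 in ENZR. All 8 POST-CX tumours were above the narrow PRE-CX range, as were 7 of 10 CRPC, 6 of 12 ENZS and 9 of 15 ENZR tumours, while 3 ENZS tumours were below it. It was higher by 0.54 ± 0.11 (SE, adjusted p = 0.000401) in POST-CX and 0.28 ± 0.10 (SE, adjusted p = 0.0128) in ENZR. HSD17B7 was not called in CRPC at 0.21 ± 0.11 (SE, adjusted p = 0.1625) or in ENZS at 0.13 ± 0.10 (SE, adjusted p = 0.264).

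SC5D (chr11:121292771-121313410, GRCh38.p14), the desaturase that acts after EBP, was called higher in ENZS and ENZR. Its levels were 91.2, 111 and 176 TPM in PRE-CX, 72.8, 95.2 and 112 in POST-CX, 77.9, 119 and 154 in CRPC, 140.2, 179 and 221 in ENZS and 63.6, 144 and 222 in ENZR. All 12 ENZS tumours were above the PRE-CX median and 7 above its range, while ENZR 21 was the lowest of all tumours. SC5D rose by 0.66 ± 0.14 (SE, adjusted p = 7.66e-05) in ENZS and by 0.32 ± 0.14 (SE, adjusted p = 0.0388) in ENZR, the latter by 0.06 and not called after centring. SC5D also lost its ENZR call in 11 of the 54 fits that each left out 1 tumour. In POST-CX and CRPC it differed by -0.29 (95% interval -0.61 to 0.02) and 0.06 (95% interval -0.24 to 0.35), and in POST-CX it was called lower, at -0.49, after centring. MSMO1, a methyl sterol oxidase, measured 40.7, 45.9 and 74.2 TPM in PRE-CX, 39.2, 43.4 and 60.2 in POST-CX, 42.0, 59.3 and 80.5 in CRPC, 46.5, 62.8 and 100.2 in ENZS and 29.9, 57.0 and 103 in ENZR. The groups overlapped, with 3 of 12 ENZS and 4 of 15 ENZR tumours above the PRE-CX range. MSMO1 rose by 0.43 ± 0.14 (SE, adjusted p = 0.00932) in ENZS and 0.32 ± 0.14 (SE, adjusted p = 0.0432) in ENZR, both lost after centring at 0.13 and 0.06. Its ENZR call was also lost in 11 of the 54 fits that each left out 1 tumour.

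On rescaled TPM the remaining sterol enzymes were called in ENZS or not at all. DHCR7, the last reductase of 1 branch, measured 33.5, 47.1 and 64.2 TPM in PRE-CX, 29.9, 38.5 and 44.4 in POST-CX, 26.3, 46.4 and 69.2 in CRPC, 30.7, 42.0 and 57.1 in ENZS and 17.0, 40.6 and 52.4 in ENZR, with overlap between all groups and differences of -0.33 in POST-CX and -0.31 in ENZR that were not called (adjusted p = 0.109 and 0.0519). SQLE, squalene epoxidase, and CYP51A1, lanosterol demethylase, were higher in ENZS by 0.33 ± 0.13 (SE, adjusted p = 0.0256) and 0.37 ± 0.14 (SE, adjusted p = 0.0179), and neither was called after centring. LSS, which closes the rings to lanosterol, and NSDHL, a decarboxylating sterol dehydrogenase, were called in none of the 4 comparisons on rescaled TPM, with differences from -0.17 to 0.08 and from -0.22 to -0.02. After centring LSS was called lower in POST-CX and ENZS (-0.36 and -0.30) and NSDHL in POST-CX, ENZS and ENZR (-0.41, -0.37 and -0.36). CYP51A1, HSD17B7 and FDPS have processed copies, which reads can be divided with. CYP51A1P2 and HSD17B7P2 reached at most 3.65 and 6.50 TPM, and FDPSP1 at most 0.121 TPM.

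The INSIG genes differed in opposite directions in ENZS and ENZR. INSIG1 measured 50.3, 63.2 and 108 TPM in PRE-CX, 31.3, 37.8 and 49.4 in POST-CX, 38.4, 56.8 and 121 in CRPC, 31.1, 40.5 and 66.6 in ENZS and 28.8, 38.1 and 126 in ENZR at the lowest, median and highest tumour. All 8 POST-CX tumours and 12 of 15 ENZR tumours were below the PRE-CX range, with ENZR 75 the highest of all tumours. INSIG1 fell, at -0.78 ± 0.21 (SE, adjusted p = 0.00422) in POST-CX, -0.61 ± 0.19 (SE, adjusted p = 0.00448) in ENZS and -0.61 ± 0.18 (SE, adjusted p = 0.00327) in ENZR, and was not called in CRPC at -0.12 ± 0.19 (SE, adjusted p = 0.713). INSIG2 measured 36.6, 70.3 and 175 TPM in PRE-CX, 66.9, 81.4 and 101 in POST-CX, 60.9, 91.4 and 179.7 in CRPC, 71.0, 152 and 230.4 in ENZS and 76.4, 155 and 315 in ENZR. PRE-CX tumours were themselves spread, and 5 of 12 ENZS and 5 of 15 ENZR tumours exceeded the highest of them. INSIG2 rose by 0.81 ± 0.24 (SE, adjusted p = 0.00279) in ENZS and 0.90 ± 0.23 (SE, adjusted p = 0.000707) in ENZR, and differed by 0.05 (95% interval -0.47 to 0.57) in POST-CX. INSIG2 was called in neither group with TPM as deposited, and in ENZS it was not called after centring either.

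Of the SREBP genes SREBF2, whose product is the main driver of sterol synthesis, was called in 3 of the 4 comparisons and SREBF1, whose product is more tied to fatty acids, in none. SREBF2 measured 38.4, 54.3 and 74.8 TPM in PRE-CX, 30.5, 34.6 and 51.8 in POST-CX, 23.0, 44.1 and 67.1 in CRPC, 22.6, 33.5 and 49.9 in ENZS and 17.3, 42.8 and 61.5 in ENZR. No castrated tumour exceeded the highest PRE-CX tumour, and 10 of 12 ENZS tumours were below the lowest. The falls were -0.50 ± 0.19 (SE, adjusted p = 0.0476) in POST-CX, -0.63 ± 0.18 (SE, adjusted p = 0.00179) in ENZS and -0.53 ± 0.17 (SE, adjusted p = 0.00589) in ENZR. The POST-CX call was lost without the 4 tumours of low human total, at -0.46, and in 18 of the 54 fits that each left out 1 tumour. SREBF1 measured 89.7, 131 and 238 TPM in PRE-CX, 101, 158 and 197 in POST-CX, 64.8, 148 and 201 in CRPC, 126, 169 and 235 in ENZS and 93.9, 174 and 228 in ENZR, with wide overlap and differences of 0.32 ± 0.16 (SE, adjusted p = 0.078) in ENZS and 0.31 ± 0.15 (SE, adjusted p = 0.0767) in ENZR. SCAP measured 24.2, 38.4 and 62.3 TPM in PRE-CX, 31.9, 40.6 and 43.8 in POST-CX, 24.4, 35.9 and 52.9 in CRPC, 28.3, 45.0 and 60.7 in ENZS and 27.1, 41.6 and 72.7 in ENZR. Its differences were -0.11, -0.23, 0.02 and -0.01 and none was called, although after centring it was called lower in CRPC, ENZS and ENZR, at -0.32, -0.27 and -0.27.

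**Figure D2:**
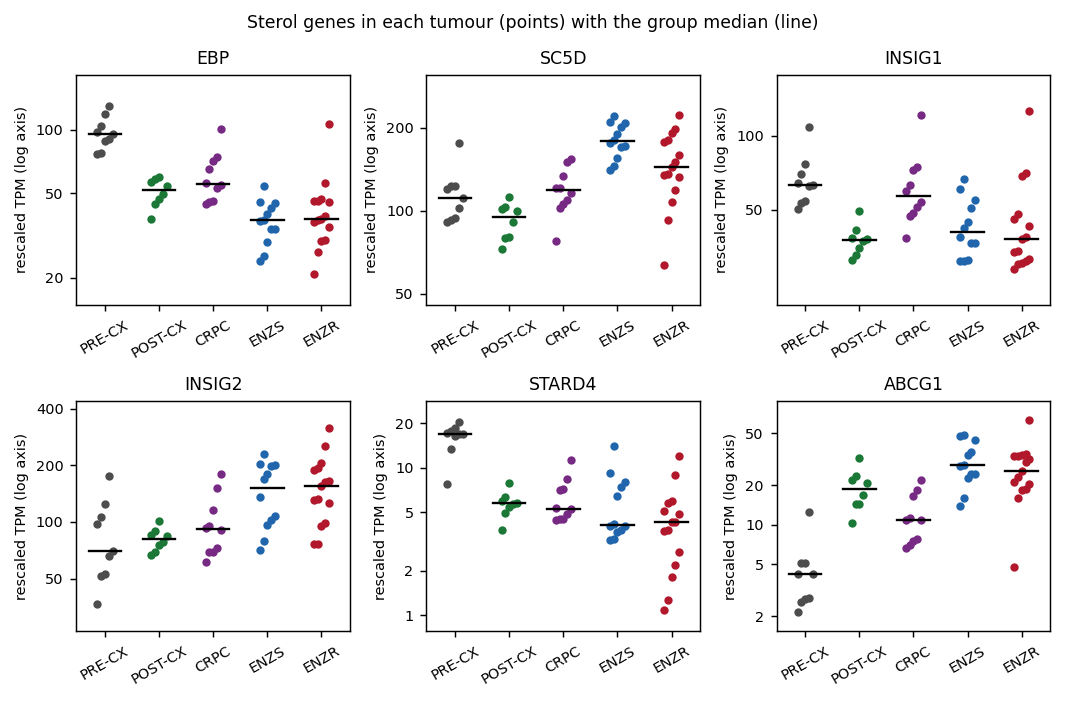
Levels of 6 sterol genes in each of the 54 tumours (points; rescaled TPM on a log axis) by group, with the group median as a line. EBP and STARD4 lie lower and ABCG1 higher in the castrated groups, INSIG1 lies lower in POST-CX, ENZS and ENZR, ENZR 75 is the ENZR point within the PRE-CX range of EBP, and INSIG2 and SC5D have their highest medians in ENZS and ENZR.

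The sterol carrier STARD4 and the exporter ABCG1 held the largest differences of the 28 members in the 4 comparisons with 1 TPM added, whereas with 0.1 TPM added ABCA1 (1.88 and 1.79) exceeded STARD4 (-1.46 and -1.55) in POST-CX and ENZS. STARD4 measured 7.81, 16.9 and 20.3 TPM in PRE-CX, 3.80, 5.74 and 7.89 in POST-CX, 4.43, 5.29 and 11.3 in CRPC, 3.25, 4.10 and 14.0 in ENZS and 1.09, 4.30 and 12.0 in ENZR. Apart from PRE-CX 111 (7.81 TPM) all PRE-CX tumours were at 13.5 TPM or more, and of the castrated tumours only ENZS 56 reached that. STARD4 fell, at -1.33 ± 0.26 (SE, adjusted p = 0.000141) in POST-CX, -1.25 ± 0.24 (SE, adjusted p = 0.000168) in CRPC, -1.39 ± 0.23 (SE, adjusted p = 1.49e-06) in ENZS and -1.77 ± 0.22 (SE, adjusted p = 5.52e-09) in ENZR. ABCG1 (chr21:42199689-42297244) measured 2.14, 4.22 and 12.5 TPM in PRE-CX, 10.3, 18.8 and 32.3 in POST-CX, 6.63, 10.9 and 22.1 in CRPC, 13.9, 28.4 and 48.2 in ENZS and 4.74, 25.8 and 62.9 in ENZR. All 12 ENZS tumours were above every PRE-CX tumour, as were 14 of 15 ENZR and 7 of 8 POST-CX tumours, and ENZR 75 was the exception in ENZR. ABCG1 rose by 1.94 ± 0.30 (SE, adjusted p = 3.45e-06) in POST-CX, 1.25 ± 0.28 (SE, adjusted p = 0.000956) in CRPC, 2.55 ± 0.27 (SE, adjusted p = 4.49e-11) in ENZS and 2.32 ± 0.26 (SE, adjusted p = 2.13e-10) in ENZR, or 3.83, 2.37, 5.88 and 5.00 times on the scale of TPM + 1.

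ABCA1 was the least abundant of these members, at levels where the added 1 TPM understates changes. It measured 0.122, 0.356 and 2.21 TPM in PRE-CX, 0.821, 1.76 and 8.18 in POST-CX, 0.438, 0.644 and 1.57 in CRPC, 0.897, 1.96 and 6.37 in ENZS and 0.455, 1.84 and 6.53 in ENZR. All tumours of the 4 castrated groups were above the PRE-CX median, CRPC included, but the ranges overlapped. ABCA1 rose by 0.99 ± 0.29 (SE, adjusted p = 0.0102) in POST-CX, 0.93 ± 0.27 (SE, adjusted p = 0.00241) in ENZS and 1.01 ± 0.26 (SE, adjusted p = 0.000764) in ENZR, and differed by 0.15 (95% interval -0.41 to 0.71) in CRPC. SOAT1 measured 10.5, 26.8 and 32.6 TPM in PRE-CX, 12.3, 28.7 and 34.5 in POST-CX, 18.9, 29.5 and 41.5 in CRPC, 17.2, 35.4 and 48.6 in ENZS and 17.6, 37.8 and 61.9 in ENZR. Most ENZR tumours (10 of 15) were above the PRE-CX range, and SOAT1 rose by 0.56 ± 0.19 (SE, adjusted p = 0.012) in ENZS and 0.64 ± 0.19 (SE, adjusted p = 0.00302) in ENZR. NPC1 measured 11.6, 28.1 and 62.6 TPM in PRE-CX, 13.9, 19.5 and 29.8 in POST-CX, 13.7, 18.7 and 45.9 in CRPC, 18.1, 27.1 and 42.8 in ENZS and 16.4, 25.7 and 53.2 in ENZR. Its groups overlapped, and its differences of -0.39 in POST-CX and -0.38 in CRPC were not called (adjusted p = 0.187 and 0.2).

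The 2 relapse steps, CRPC against POST-CX and ENZR against ENZS, share no tumours. They were set side by side to ask whether sterol genes move alike at relapse under each treatment. Relapse was taken at the return of PSA or at a tumour volume of 1000 mm3. The labels do not say which of these applied to a tumour. At relapse after castration 15 of the 18 enzymes were higher in CRPC than in POST-CX, with a median difference of 0.25 where that of all genes was -0.07. No member passed the adjusted threshold (limma, 0 of 28), where 12 of 28 had an unadjusted p under 0.05. Over all genes 0.00568% were called higher and 0.0568% lower, and 12.8% had an unadjusted p under 0.05. At relapse on enzalutamide 7 of 18 enzymes were higher in ENZR than in ENZS, with a median of -0.02. Again 0 of 28 members passed in limma, 3 having an unadjusted p under 0.05, and over all genes 0% were called higher and 0% lower, with 9.96% at an unadjusted p under 0.05. The number of enzymes with a positive difference was 15 and 10 after centring, and 16 and 1 with TPM as deposited, so that the direction was kept at the first step and depended on the scaling at the second.

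The highest positive differences of the first step were those of INSIG1, FDFT1 and IDI1. INSIG1 was at a median of 37.8 TPM in POST-CX and 56.8 TPM in CRPC, with all 10 CRPC tumours above the POST-CX median and 7 above its range, a difference of 0.66 ± 0.20 (SE, adjusted p = 0.137). FDFT1 had 8 of 10 CRPC tumours above the POST-CX range and IDI1 had 9 of 10, with differences of 0.49 ± 0.13 (SE, adjusted p = 0.104) and 0.46 ± 0.13 (SE, adjusted p = 0.132). SC5D, DHCR7 and MSMO1 differed by 0.35, 0.35 and 0.38 (adjusted p = 0.319, 0.33 and 0.285). Negative differences were largest in ABCA1 at -0.84 ± 0.29 (SE, adjusted p = 0.198), ABCG1 at -0.69 ± 0.29 (SE, adjusted p = 0.298), TM7SF2 at -0.40 ± 0.21 (SE, adjusted p = 0.434) and HSD17B7 at -0.33 ± 0.11 (SE, adjusted p = 0.181). These are the 4 members that rose in POST-CX, which shares its tumours with that comparison. KLK3, the PSA gene, differed by 1.63 at the same step (adjusted p = 0.147).

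At relapse on enzalutamide the intervals of the same genes lay around 0. INSIG1 differed by -0.001 (95% interval -0.33 to 0.33), FDFT1 by -0.02 (95% interval -0.23 to 0.19) and IDI1 by -0.04 (95% interval -0.26 to 0.18). EBP, which was lower in ENZS than in any other group by its median, differed by 0.12 (95% interval -0.17 to 0.41) in ENZR. The lowest unadjusted p values were those of SC5D, at -0.34 (95% interval -0.59 to -0.09), MVD, at 0.30 (95% interval 0.04 to 0.57), and TM7SF2, at -0.36 (95% interval -0.71 to -0.01). STARD4 differed by -0.38 (95% interval -0.79 to 0.03), and 5 of 15 ENZR tumours were under the lowest ENZS tumour. The differences of SREBF2, SCAP, NPC1, SOAT1, ABCA1 and INSIG2 lay between -0.03 and 0.10. KLK3 differed by -0.71 at this step, with an adjusted p of 0.579.

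**Figure D3:**
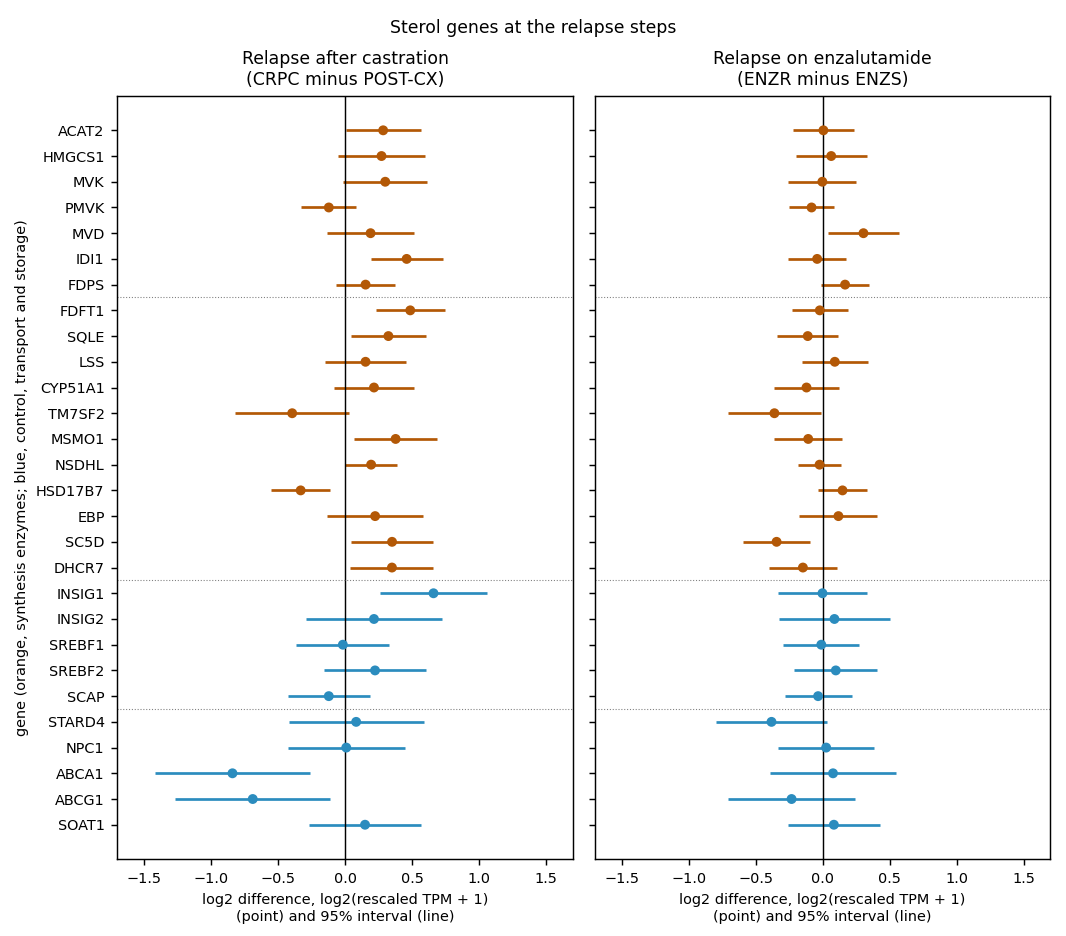
Log2 differences (points) with 95% intervals (lines) of the 28 sterol genes at relapse after castration (left) and at relapse on enzalutamide (right), with synthesis enzymes in orange and the other members in blue. At the left 15 of 18 enzymes lie above 0, led by FDFT1 at 0.49 and IDI1 at 0.46, and at the right 7 of 18 do, a number that was 1 with TPM as deposited and 10 after centring.

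The difference between the steps was tested as its own contrast. No member passed (limma, 0 of 28 higher or lower), with 9 of 28 at an unadjusted p under 0.05. Over all genes 0.0966% were called higher and 0.102% lower, and 13.5% had an unadjusted p under 0.05. Of the enzymes 13 of 18 had a negative value (a lower difference on enzalutamide than after castration; 16 after centring and 18 with TPM as deposited), and the median over the 18 was -0.25, against 0.03 over all genes. The largest were SC5D at -0.69 ± 0.20 (SE, adjusted p = 0.0999), FDFT1 at -0.51 ± 0.16 (SE, adjusted p = 0.15), IDI1 at -0.50 ± 0.17 (SE, adjusted p = 0.178), DHCR7 at -0.50 ± 0.20 (SE, adjusted p = 0.252) and MSMO1 at -0.48 ± 0.20 (SE, adjusted p = 0.267), with HSD17B7 opposite at 0.48 ± 0.14 (SE, adjusted p = 0.121). The smallest were FDPS, TM7SF2 and PMVK, at 0.02 (95% interval -0.27 to 0.30), 0.04 (95% interval -0.51 to 0.59) and 0.04 (95% interval -0.23 to 0.31). Among the other members INSIG1 had -0.66 ± 0.26 (SE, adjusted p = 0.236) and ABCA1 0.92 ± 0.37 (SE, adjusted p = 0.256). Without ENZR 75 the values of FDFT1 and IDI1 were -0.57 and -0.57, and still 0 of 28 members passed.

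These counts depended on how tumours were weighted. When limma gave each tumour a weight from its residual spread, 8 members rose and 2 fell from POST-CX to CRPC, where 2.47% of all genes rose and 9.04% fell. The 8 were DHCR7, FDFT1, HMGCS1, IDI1, INSIG1, MSMO1, SC5D and SQLE, and the 2 were ABCA1 and HSD17B7. At relapse on enzalutamide 0 members passed in that weighted limma fit, with 0 at an unadjusted p under 0.05, and 0% and 0.00568% of all genes were called. The difference between the steps was then called in 8 members, lower in FDFT1, IDI1, INSIG1, MSMO1, SC5D and SQLE and higher in ABCA1 and HSD17B7, against 6.84% higher and 2.75% lower over all genes. Weights ran from 0.258 in ENZR 75 to 3.49 in POST-CX 86.

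ENZS and ENZR were also set against CRPC, the castrated tumours that had not been given the drug. In ENZS 3 members rose and 4 fell (all genes 31.4% and 6.41%), and in ENZR 3 rose and 4 fell (21.2% and 5.45%). The splits were 2 and 11 in both after centring, with 11.2% and 13.9% of all genes in ENZS and 6.7% and 11.8% in ENZR. With TPM as deposited they were 1 and 0 in ENZS (6.21% and 2.71%), and 0 and 0 in ENZR by limma (0.584% and 2.52%), where 10 of 28 had an unadjusted p under 0.05. With array weights ENZR had 6 members higher and 6 lower, against 31.7% and 7.04% of all genes. ACAT2, FDPS, EBP and INSIG1 fell in both groups. EBP fell, at -0.68 ± 0.16 (SE, adjusted p = 0.00104) in ENZS and -0.57 ± 0.15 (SE, adjusted p = 0.00639) in ENZR. INSIG1 fell, at -0.49 and -0.49. ABCG1 rose by 1.31 ± 0.26 (SE, adjusted p = 0.000183) and 1.08 ± 0.25 (SE, adjusted p = 0.00199), and ABCA1 by 0.78 and 0.86. SC5D rose in ENZS, by 0.61 ± 0.14 (SE, adjusted p = 0.000724), with 10 of 12 tumours above the CRPC range, and INSIG2 in ENZR, by 0.63 ± 0.22 (SE, adjusted p = 0.0279). Without ENZR 75 the ENZR count went from 7 to 11 members, and without CRPC 43 to 4, with no share over all genes set beside these. Without the 4 tumours of low human total FDPS and INSIG1 were not called in ENZR.

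Inside the groups most enzymes varied together. Deviations of log2 levels from the group means were correlated over the 54 tumours, which share their libraries and their scaling, and r is given as a description. Over the 153 pairs of enzymes the median r was 0.30, and 137 pairs were above 0. Against the mean of the other enzymes r was 0.77 for HMGCS1, 0.75 for MVK, 0.75 for DHCR7, 0.73 for NSDHL and 0.71 for FDFT1, and 0.71 for INSIG1, which is no enzyme. All other genes had a median r of 0.13, with a 5th to 95th percentile of -0.21 to 0.44. Of the enzymes PMVK (0.44), LSS (0.33), MSMO1 (0.31), TM7SF2 (0.27), HSD17B7 (0.26) and SC5D (-0.07) lay inside that band, and after centring LSS and TM7SF2 were at 0.14 and 0.08. SC5D, INSIG2 (r = -0.003), ABCA1 (r = 0.08) and ABCG1 (r = -0.18) lay below that median. SREBF2 had an r of 0.65 and SREBF1 of 0.60, and after centring these were 0.56 and 0.38. The band of all other genes was then -0.38 to 0.44, so that SREBF1 lay inside it, as did SQLE (0.51 before centring and 0.38 after). Without the 4 tumours of low human total r was 0.71 for INSIG1 and -0.06 for SC5D, and after centring 0.80 and -0.07, when the median of all other genes was 0.02 and ABCG1 was at -0.50.

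**Figure D4:**
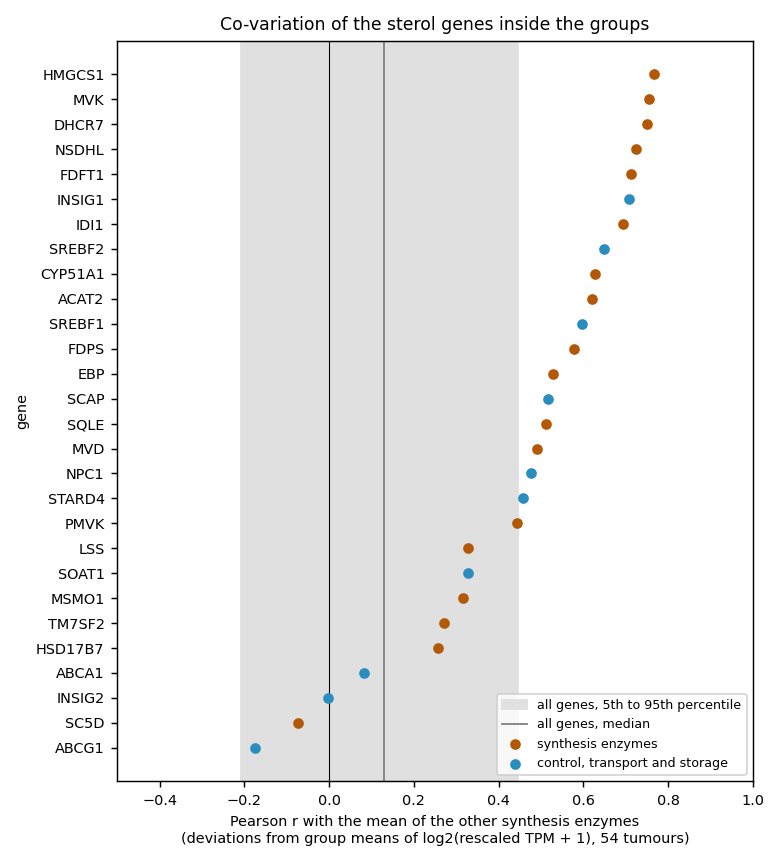
Pearson r over 54 tumours between each sterol gene and the mean of the other synthesis enzymes, using deviations from group means, with the band of all genes (5th to 95th percentile) in grey. INSIG1 (0.71) sits among the enzymes, while SC5D (-0.07), INSIG2 (-0.003) and ABCG1 (-0.18) are among the lowest.

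The mean log2 level of the 18 enzymes was also taken in each tumour. At the lowest, median and highest tumour it was 5.47, 5.88 and 6.09 in PRE-CX, 5.49, 5.64 and 5.74 in POST-CX, 5.44, 5.81 and 6.21 in CRPC, 5.58, 5.77 and 5.92 in ENZS and 5.22, 5.70 and 6.13 in ENZR. The groups overlapped. The lowest tumour was ENZR 87 and the highest CRPC 43, with ENZR 75 next. Beside it, 3 ratios of members are given as a description with no test, since they were chosen after the values were seen. SC5D over EBP had group medians of 0.26 (log2) in PRE-CX, 0.79 in POST-CX, 1.12 in CRPC, 2.14 in ENZS and 1.85 in ENZR. All 12 ENZS and 13 of 15 ENZR tumours were above every PRE-CX tumour, against 6 of 8 POST-CX and 7 of 10 CRPC tumours. INSIG2 over INSIG1 had medians of 0.40, 1.10, 0.83, 1.67 and 1.95 in the same order, with 9 of 12 ENZS and 12 of 15 ENZR tumours above the PRE-CX range. ABCG1 over HMGCS1 had medians of -4.42, -1.79, -2.81, -1.40 and -1.60, with all 12 ENZS and 14 of 15 ENZR tumours above it. A ratio within a tumour does not depend on its scaling.

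**Figure D5:**
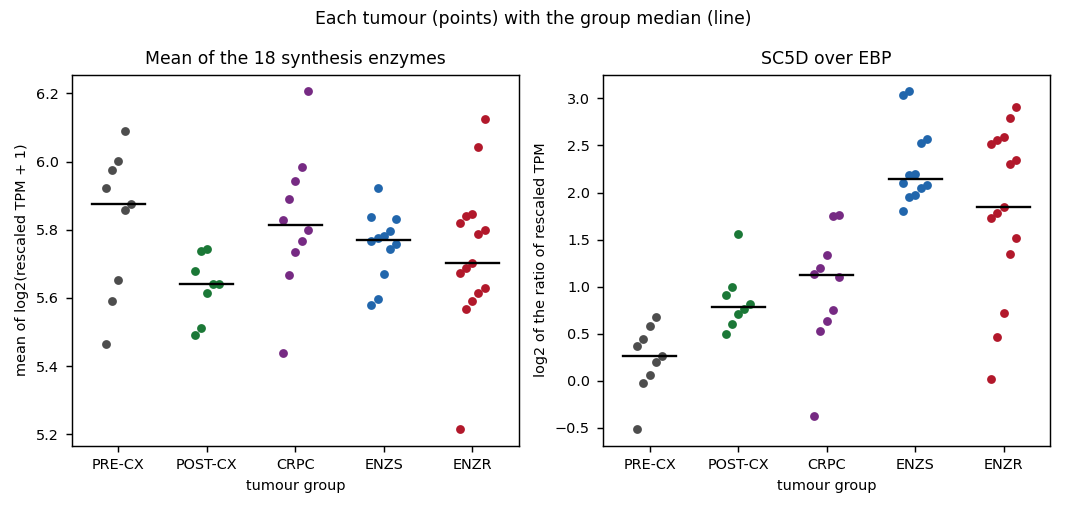
Left, mean of log2(rescaled TPM + 1) over the 18 synthesis enzymes in each tumour, by group, with the median as a line. Right, the log2 ratio of SC5D to EBP, whose median was 0.26 in PRE-CX and 2.14 in ENZS, while the means at the left overlap between all groups.

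Other genes of sterol and isoprenoid biology, from a list of 29 that held no member, gave a wider frame. Of these 25 passed the filter, and SOAT2, APOE, CYP27A1 and CH25H did not. In POST-CX 6 of the 25 rose and 3 fell, where 20.6% of all genes tested rose and 5.62% fell. In CRPC 5 rose and 1 fell (all genes 14.2% and 5.87%). In ENZS 14 rose and 6 fell (47.5% and 13.6%), and in ENZR 13 rose and 6 fell (44.6% and 13.8%). After centring the counts were 4 and 5 in POST-CX (all genes 10.2% and 14.4%) and 3 and 2 in CRPC (11.6% and 11%). They were 6 and 8 in ENZS (26.6% and 28.3%) and 7 and 8 in ENZR (24.2% and 27.7%). With TPM as deposited they were 0 and 1 in POST-CX (1.66% and 2.67%) and 1 and 1 in CRPC (5.55% and 1.87%). On that scale ENZS had 6 and 3 (30.3% and 8.18%) and ENZR 3 and 6 (17.6% and 11.5%). Compared with CRPC, 8 rose and 3 fell in ENZS (all genes 31.4% and 6.41%) and 6 rose and 2 fell in ENZR (21.2% and 5.45%). After centring these were 5 and 5 (11.2% and 13.9%) and 2 and 5 (6.7% and 11.8%). With TPM as deposited they were 1 and 2 (6.21% and 2.71%) and 0 and 1 (0.584% and 2.52%). At both relapse steps 0 of 25 were called by limma, with 4 at an unadjusted p under 0.05 in each. Their median difference at relapse after castration was -0.03, compared with 0.25 for the 18 enzymes and -0.07 for all genes.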

How the data were processed

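Transcripts were measured by paired-end stranded polyA RNA-seq in 54 LNCaP xenografts, 1 library for each mouse. Per the labels and the study's methods, the authors trimmed reads (Trim Galore 0.6.5, FastQC 0.11.9), aligned them to a combined human and mouse reference (STAR 2.7.2b), estimated expression with RSEM 1.3.3 and deposited TPM of the human symbols. Read depth is not given by TPM, so no counting interval is printed, and the number of tumours limits precision. Here TPM was rescaled to 1000000 in each tumour, and log2(TPM + 1) was fitted for the 17593 genes that reached 1 TPM in 8 or more tumours, in limma 3.58.1 (R 4.3.3), with 5 group means over all tumours and a trended prior. The fold scale is that of TPM + 1, which understates changes of low genes. P values were two-sided and adjusted by Benjamini-Hochberg over all genes in each of 9 comparisons.

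The members, lists, ratios and tests were chosen with earlier results of these data known. Full values are given for the 6 enzymes with the largest and the 3 with the smallest difference between the relapse steps and for the 10 members outside synthesis, while EBP was added after its values were seen. Alternatives were TPM as deposited, centring on each tumour's median gene, a pseudocount of 0.1, no filter, a filter at 5 TPM, array weights, no trend, leaving out the 4 tumours of lowest human total and, added after seeing the data, leaving out each tumour and array weights without those 4. Labels name each mouse but no litter or batch. Scripts were tested on simulated data. Promoter windows came from RefSeq tables. The columns hold no comparisons made by the authors. Some genes are not reported here.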

Additional observations from a re-analysis of the deposited data

Results flagged for a closer look

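In PRE-CX, POST-CX and CRPC, the groups of 4 to 10 tumours, the highest and lowest log2 level of each of the 28 members, and of the mean of the 18 enzymes, was compared with its neighbours by Dixon's criterion. Of 87 such sets of values 10 were picked out, and chance alone picks out about 1 in 20 where sets are independent. These sets share tumours and their genes vary together, so they are not independent. Among CRPC tumours, IDI1 was 117.3 TPM in CRPC 43 and 67.6 to 89.7 TPM in the others. SQLE was 28.6 TPM in CRPC 47 (42.1 to 62.6 in the others), SREBF1 was 64.8 TPM in CRPC 47 (136 to 201 in the others), and NPC1 was 45.9 TPM in CRPC 81 (13.7 to 20.6 in the others). Among PRE-CX tumours, MSMO1 was 74.2 TPM (40.7 to 54.7 in the others) and SC5D 176 TPM (91.2 to 123 in the others) in PRE-CX 58. STARD4 was 7.81 TPM in PRE-CX 111 (13.5 to 20.3 in the others), and ABCG1 was 12.5 TPM in PRE-CX 53 (2.14 to 5.10 in the others). Among POST-CX tumours, ABCA1 was 8.18 TPM in POST-CX 99 (0.821 to 2.65 in the others) and SOAT1 was 12.3 TPM in POST-CX 18 (22.9 to 34.5 in the others). No group of ENZS or ENZR tumours was examined this way, because both held more than 10.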

How the results depend on the processing

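With TPM as deposited the number of members called was 5 in POST-CX, 2 in CRPC, 7 in ENZS and 9 in ENZR compared with PRE-CX, and 1 in ENZS and 0 in ENZR compared with CRPC. The corresponding numbers on rescaled TPM were 12, 4, 17, 14, 7 and 7. Centred on the median gene they were 19 in POST-CX and 7 in CRPC against PRE-CX, 13 in both ENZS and ENZR against CRPC, 1 at relapse after castration and 1 for the difference between the relapse steps (0 for both on rescaled TPM). Array weights gave 12 in CRPC against PRE-CX (all genes 24.9% higher and 10.3% lower) and 10 at relapse after castration (2.47% and 9.04%). They gave 12 in ENZR against CRPC (31.7% and 7.04%) and 8 for the difference (6.84% and 2.75%). Unweighted, 0.00568% and 0.0568% of all genes were called at relapse after castration. Without the 4 tumours of low human total as well, array weights gave 12 in CRPC against PRE-CX, 10 at relapse after castration and 8 for the difference. Leaving out those 4 alone gave 1 for the difference, and no filter gave 4 in ENZR against CRPC. PMVK and SCAP in ENZS against PRE-CX turned to -0.020 and -0.27 when centred. The mean of the 18 enzymes with TPM as deposited was 5.22 in POST-CX, 5.56 in ENZS and 5.35 in ENZR, and 5.64 in ENZS when centred, where rescaled TPM gave 5.63, 5.75 and 5.73. Leaving out 1 tumour at a time gave 11 to 14 calls in POST-CX, 3 to 6 in CRPC, 15 to 18 in ENZS and 12 to 18 in ENZR against PRE-CX, 6 to 8 in ENZS and 4 to 11 in ENZR against CRPC, and 0 to 0 at both relapse steps and for their difference. The extremes in ENZR against CRPC came without CRPC 43 (4) and without ENZR 75 (11), and 6 in CRPC came without CRPC 47 or CRPC 81. For TPM as deposited and centring, shares of all genes in the comparisons with PRE-CX and CRPC stand with the splits above. No share over all genes is given for centring at the relapse steps, for no filter or for fits that left tumours out. Those counts are thus not read as particular to the members. Of 2007 values of single members under the alternatives, 1852 stayed on their side of the threshold, 60 lost a call, 93 gained one and 2 differed in sign with a call on 1 side (PMVK on rescaled TPM, SCAP when centred), while 112 pairs of values that were not called differed in sign. The cause was not tested. TPM holds no read depth, so the precision of low values such as those of ABCA1 is unknown. No paired analysis was possible because each replicate number names 1 mouse and no number is shared between groups.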

Other observations

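Among the wider sterol genes, 3 that act around sterol sensing or reduction were singled out after their values were seen. ERLIN2, linked to the degradation of sterol-regulated proteins of the endoplasmic reticulum, rose compared with PRE-CX. Its log2 difference was 1.39 ± 0.16 in ENZS and 1.26 ± 0.16 in ENZR (SE; adjusted p of 6.34e-10 and 3.31e-09 in limma). TMEM97, an endoplasmic reticulum protein that binds NPC1, fell, at -0.88 ± 0.14 in ENZS and -0.63 ± 0.14 in ENZR (SE; adjusted p of 6.23e-07 and 9.80e-05). LBR, a nuclear membrane protein with the same reductase activity as TM7SF2, also fell, at -0.86 ± 0.17 and -0.71 ± 0.16 (SE; adjusted p of 1.51e-05 and 0.000174). These 6 differences kept their direction and their call with TPM as deposited and when centred on the median gene. The ENZS and ENZR comparisons share the PRE-CX tumours.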
